A study of Mus musculus with 8 samples.

Results

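The genes described here store vitamin A, convert it to its active form, remove that form or respond to it. They are Rbp4, Lrat, Bco1, Dhrs3, Aldh1a1, Aldh1a7, Cyp26a1, Cyp26b1 and Rarb, taken by name as a list of 9 among the 56953 gene identifiers of each count file. In GENCODE M21 (GRCm38), Rbp4, Aldh1a1, Aldh1a7 and Cyp26a1 are on chromosome 19, Lrat on 3, Dhrs3 on 4, Cyp26b1 on 6, Bco1 on 8 and Rarb on 14. All 9 were found by Ensembl identifier, and all 9 passed the filter on low counts that left 15669 genes to be tested. The data are gene counts from RNA of whole liver of adult male mice. The HSC-PCK1-KO group holds 4 libraries from mice whose Pck1, a gene of glucose synthesis, was deleted in hepatic stellate cells, and the Control group holds 4 libraries from mice labelled wild type. Both groups ate CDHFD, a choline-deficient high-fat diet that brings on fatty liver and fibrosis, for 8 weeks, so no animal here was on a standard diet. The sources used here do not give the Cre line behind the deletion, or the strain. The design text calls the 4 libraries of a group biological replicates. The comparison asks whether transcripts of the vitamin A system differed in whole liver when Pck1 was deleted in the cell that stores the vitamin.

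The liver holds most of the body's vitamin A, and stellate cells keep nearly all of that as retinyl esters in lipid droplets, which they lose as they turn into collagen-producing myofibroblasts. Hepatocytes take up dietary retinoid and release retinol into blood bound to a carrier protein. Retinol is oxidised to retinaldehyde and then to retinoic acid, which switches on genes through RAR and RXR receptors bound to paired copies of a short DNA word, and which is then hydroxylated and cleared. Several genes of storage and clearance are themselves switched on by retinoic acid.

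A direct repeat with 5 bases between the copies, called DR5, is the classical element of the retinoic acid receptors. It was searched for in RefSeq promoters (GRCm38.p6, 250 bases before to 50 bases after each start site) as AGGTCA or AGTTCA, or either of these with G for the A that opens it, followed by 5 bases and any of these 4 words again, on both strands. Of 32851 promoters, 32 (0.0974%) held it, and among the promoters of the 9 genes it was found for Cyp26a1 and for Rarb. The same words 2 bases apart (DR2) were in 88 promoters (0.268%) and in none of the 9 genes. Both promoters with a DR5 are shown because these genes are the textbook reporters of retinoic acid and their levels are followed below. Capitals mark the match.
Cyp26a1, chr19:37697558-37697857, plus strand: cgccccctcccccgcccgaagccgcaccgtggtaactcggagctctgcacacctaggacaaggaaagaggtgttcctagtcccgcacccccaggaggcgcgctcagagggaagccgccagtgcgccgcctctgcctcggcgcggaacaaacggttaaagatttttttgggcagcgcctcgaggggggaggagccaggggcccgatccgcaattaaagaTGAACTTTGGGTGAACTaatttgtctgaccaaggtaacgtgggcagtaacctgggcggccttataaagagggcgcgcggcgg
Rarb, chr14:16575427-16575726, minus strand: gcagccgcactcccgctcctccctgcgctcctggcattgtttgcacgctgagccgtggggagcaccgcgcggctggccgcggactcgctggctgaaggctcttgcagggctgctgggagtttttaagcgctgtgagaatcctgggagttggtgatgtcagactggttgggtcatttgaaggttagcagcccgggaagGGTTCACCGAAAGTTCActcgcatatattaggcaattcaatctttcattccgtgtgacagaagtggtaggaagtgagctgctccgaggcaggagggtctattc
The Cyp26a1 match reads in the direct orientation on the strand opposite to the one printed and ends at position -16 relative to the start site. The Rarb match reads on the printed strand and ends at position -37. A match describes letters in these windows only.

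Library totals lay between 44695439 and 49477255 counts. Levels below are CPM, counts per 1000000 after TMM scaling of the library totals. Pck1 stood at 339, 795, 593 and 948 CPM in the HSC-PCK1-KO libraries and at 1002, 2012, 551 and 1028 CPM in the Control libraries, replicates 1 to 4 in each case. HSC-PCK1-KO and Control libraries overlapped (log2 fold change -0.78, SE 0.44, adjusted p 0.9998 in edgeR), and since hepatocytes express Pck1 strongly, its level in whole liver is no check of a deletion in stellate cells. Hepatocyte markers were present throughout, Alb averaging 66610 ± 7413 CPM in HSC-PCK1-KO livers against 68170 ± 8862 CPM in those of Control mice (SD, n = 4 each). The stellate marker Reln averaged 55.9 ± 8.75 CPM in HSC-PCK1-KO livers against 65.8 ± 5.04 CPM in those of Control mice (SD, n = 4 each). Rgs5, another stellate marker, went the other way, at 37.3 ± 2.2 CPM in HSC-PCK1-KO against 31.4 ± 4.6 CPM in Control livers.

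None of the 9 retinoid genes passed the test between HSC-PCK1-KO and Control livers. In edgeR's quasi-likelihood test, adjusted over all 15669 genes, the adjusted p was 0.9998 for each of the 9, and none had an unadjusted p under 0.05. Over the whole table the same test called 0 genes (0%), with 370 genes (2.36%) at an unadjusted p under 0.05, while DESeq2 called 6 (0.0383%) and limma-voom with sample weights 0. The HSC-PCK1-KO and Control libraries overlapped in all 9 genes, where 1.53% of all tested genes did not overlap. Log2 fold changes, HSC-PCK1-KO minus Control, were negative for 4 of the 9 and positive for 5, with a median of 0.015, against 51.8% negative and a median of -0.0055 over all tested genes. Exact two-sided permutation tests of log2 CPM gave p from 0.4 to 0.886 for the 9 genes, where the smallest p that 4 against 4 libraries allow is 0.0286. In bulk RNA, fewer cells of a type and less RNA per cell cannot be told apart, which bears on every level of a stellate cell gene given here.

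The precision differed widely between the genes. For Rbp4, Lrat, Bco1, Dhrs3, Aldh1a1 and Aldh1a7 the 95% interval of the fold change excluded a 1.5-fold change in either direction. For Rarb it excluded a 2-fold change either way, which made 7 of 9 genes at that bound. For Cyp26a1 it ran from 0.327-fold to 3.89-fold and for Cyp26b1 from 0.255-fold to 2.26-fold, so for these genes a 2-fold change in either direction was not excluded.

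**Figure D1:**
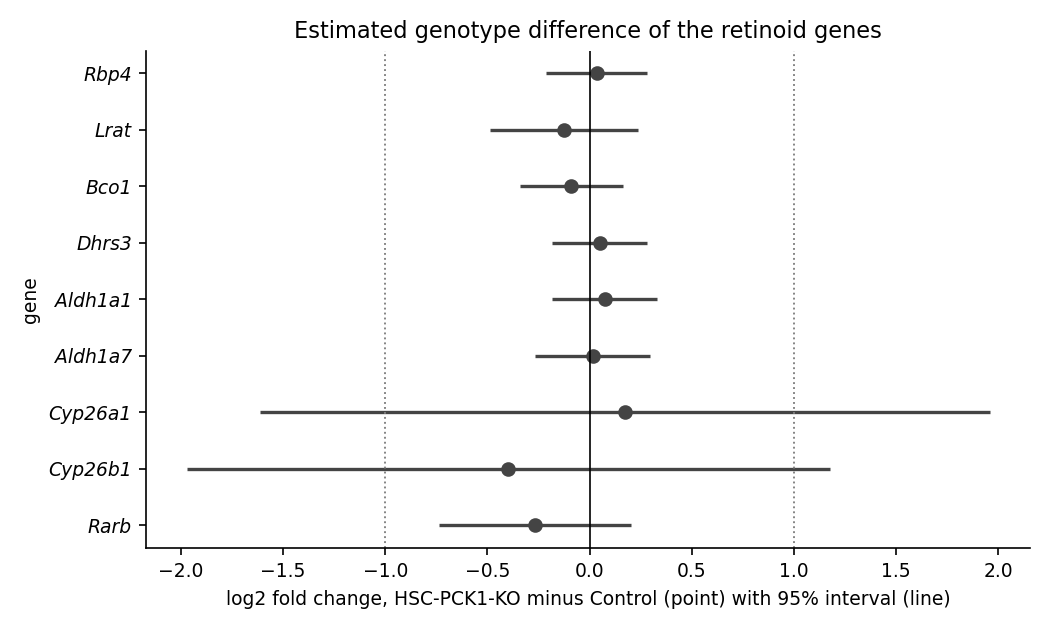
Log2 fold change of each of the 9 genes, HSC-PCK1-KO minus Control (points, edgeR), with its 95% interval (lines). Dotted lines mark a 2-fold change, and the intervals of Cyp26a1 and Cyp26b1 reach past both of them.

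Rbp4 (ENSMUSG00000024990.14), the plasma carrier that takes retinol out of hepatocytes, had the highest level per kilobase of the 9. It stood at 3022, 2975, 3154 and 2643 CPM in the HSC-PCK1-KO libraries and at 2618, 3293, 3001 and 2603 CPM in the Control libraries. Both groups spanned nearly the same range, the lowest and the highest library both being Control. The means were 2948 ± 217 CPM in HSC-PCK1-KO livers against 2879 ± 332 CPM in those of Control mice (SD, n = 4 each), with a log2 fold change of 0.035 (SE 0.11). Its sign turned without Control replicate 1 (-0.0083) or Control replicate 4 (-0.0085). Ttr, the partner that keeps the carrier in blood, averaged 8438 ± 1249 CPM in HSC-PCK1-KO livers against 8419 ± 478 CPM in those of Control mice (SD, n = 4 each).

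Lrat (ENSMUSG00000028003.7) esterifies retinol for storage and, in liver, marks stellate cells. Its levels were 21.4, 19.8, 16.9 and 22.9 CPM in HSC-PCK1-KO libraries and 27.7, 21.2, 15.8 and 23.6 CPM in Control libraries. Control replicate 1 was the highest of the 8 and Control replicate 3 the lowest, with all HSC-PCK1-KO libraries between them. The means of 20.2 ± 2.59 CPM in HSC-PCK1-KO livers against 22.1 ± 4.99 CPM in those of Control mice (SD, n = 4 each) gave a log2 fold change of -0.12 (95% interval -0.49 to 0.24), and 0.0041 without Control replicate 1. Lrat is itself 1 of a list of 19 quiescent stellate cell markers. Of these, 16 lay below 0 as log2 fold changes, while Rgs5, Hand2 and Hhip lay above 0, at 0.25, 0.16 and 0.057. The median of the list was -0.12, which is the value of Lrat itself as its middle member, and none was past the adjusted threshold in edgeR. The summed level of that list was 537 to 608 CPM in HSC-PCK1-KO libraries, against 593 to 645 CPM in Control libraries.

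Markers of activated stellate cells and of mesothelium, the liver's outer cell layer, were summed in the same libraries. A mesothelial list of 9 markers summed to 3.33 to 6.06 CPM in HSC-PCK1-KO libraries, against 6.32 to 14.9 CPM in Control libraries, and all 8 of its tested genes had negative log2 fold changes. The median of those 8 was -1.24, none was called in edgeR, and no mesothelial marker was at 0 in all libraries. Gene by gene, the groups overlapped for Upk1b, Gpm6a, Wt1, Krt19 and Lrrn4. They did not overlap for Upk3b, Msln and Muc16, where 1.53% of all tested genes did not overlap. Aldh1a2, the marker of the list that did not pass the filter, was not lower. It averaged 0.171 ± 0.070 CPM in HSC-PCK1-KO livers against 0.162 ± 0.111 CPM in those of Control mice (SD, n = 4 each). Upk3b, which DESeq2 called, averaged 0.975 ± 0.208 CPM in HSC-PCK1-KO livers against 3.37 ± 1.68 CPM in those of Control mice (SD, n = 4 each). A list of 17 symbols for activated stellate cells held 16 genes, Ctgf being an older name of Ccn2, and all 16 were found. Of their log2 fold changes, 14 of 16 were below 0. They summed to 100.3 to 181 CPM in HSC-PCK1-KO libraries, against 119 to 284 CPM in Control libraries. The part of any of these cells in the Lrat values was not tested.

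**Figure D2:**
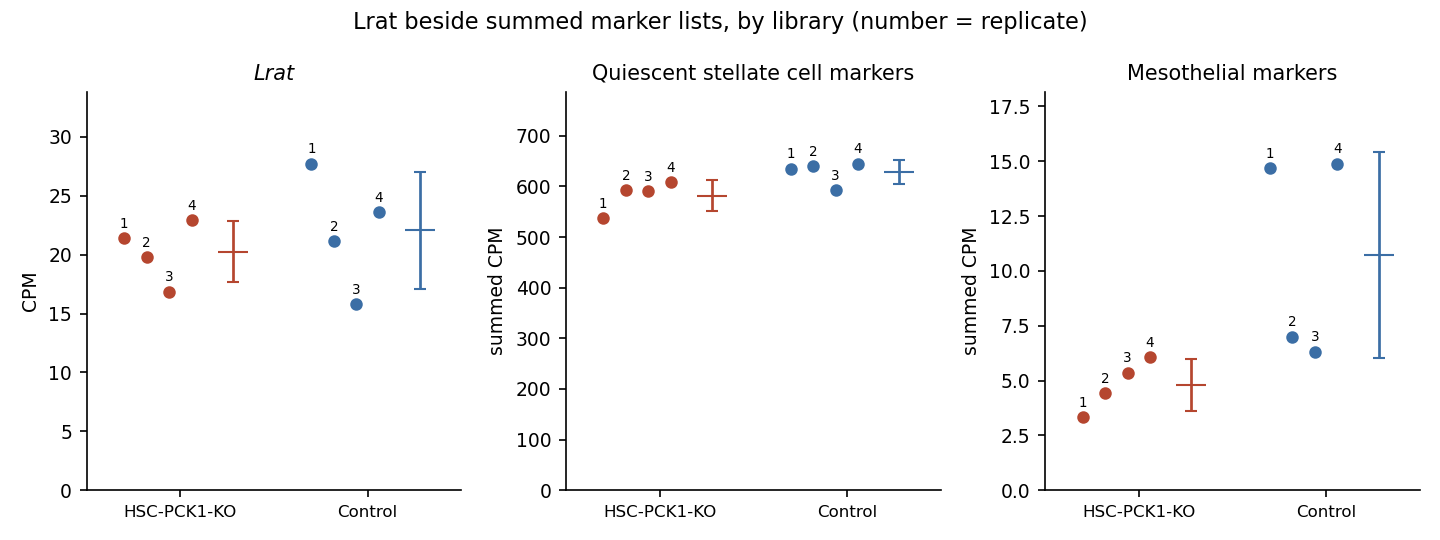
CPM of Lrat and summed CPM of 19 quiescent stellate cell markers, Lrat among them, and 9 mesothelial markers in each library (dots, replicate number above), with mean and SD (bars, n = 4), HSC-PCK1-KO left of Control. Lrat runs from 16.9 to 22.9 CPM in HSC-PCK1-KO and from 15.8 to 27.7 CPM in Control libraries and overlaps, while the mesothelial sums do not.

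Bco1 (ENSMUSG00000031845.17) cleaves beta-carotene into retinaldehyde. It stood at 6.46, 8.19, 8.33 and 8.03 CPM in HSC-PCK1-KO libraries and at 7.69, 7.43, 8.75 and 9.11 CPM in Control libraries. HSC-PCK1-KO replicate 1 lay below the other 7 libraries, which ran from 7.43 to 9.11 CPM. The means were 7.75 ± 0.872 CPM in HSC-PCK1-KO livers against 8.25 ± 0.813 CPM in those of Control mice (SD, n = 4 each). This gave a log2 fold change of -0.090 (SE 0.11), and -0.014 without HSC-PCK1-KO replicate 1. Bco2, which cuts carotenoids at another bond, averaged 33.5 ± 6.08 CPM in HSC-PCK1-KO livers against 29.6 ± 1.80 CPM in those of Control mice (SD, n = 4 each).

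Dhrs3 (ENSMUSG00000066026.15) reduces retinaldehyde back to retinol and so limits retinoic acid synthesis. It stood at 194, 167, 182 and 174 CPM in HSC-PCK1-KO libraries and at 153, 199, 188 and 152 CPM in Control libraries. Here the Control libraries spread to both sides of the HSC-PCK1-KO libraries. The means were 179 ± 11.8 CPM in HSC-PCK1-KO livers against 173 ± 23.9 CPM in those of Control mice (SD, n = 4 each). As a log2 fold change this was 0.049 (SE 0.10), and its sign turned without Control replicate 1 (-0.0053) or Control replicate 4 (-0.0054).

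Aldh1a1 (ENSMUSG00000053279.9) oxidises retinaldehyde to retinoic acid and is abundant in hepatocytes. Its levels were 2186, 1646, 1834 and 1558 CPM in HSC-PCK1-KO libraries and 1663, 1798, 1659 and 1742 CPM in Control libraries. The Control libraries lay within a narrow band, and the HSC-PCK1-KO libraries extended above and below it. The means were 1806 ± 278 CPM in HSC-PCK1-KO livers against 1715 ± 67.0 CPM in those of Control mice (SD, n = 4 each). The log2 fold change of 0.074 (SE 0.12) was -0.032 without HSC-PCK1-KO replicate 1. Aldh1a7 (ENSMUSG00000024747.4), a close paralog on the same chromosome, stood at 303, 316, 381 and 266 CPM in HSC-PCK1-KO libraries and at 372, 280, 302 and 298 CPM in Control libraries. HSC-PCK1-KO replicate 1, the highest library for Aldh1a1, was in the middle for Aldh1a7. The means were 317 ± 47.8 CPM in HSC-PCK1-KO livers against 313 ± 40.4 CPM in those of Control mice (SD, n = 4 each). The log2 fold change of 0.015 turned without HSC-PCK1-KO replicate 3 (-0.087), Control replicate 2 (-0.035) or Control replicate 4 (-0.0065).

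Both transcripts are 89.8% identical over 2048 aligned bases, so reads could be assigned to the wrong copy. The longest identical run was 100 bases, and only 1 of 4934 windows of 100 bases of Aldh1a1 was also found in Aldh1a7 (GENCODE M21 transcripts). Aldh1a1 took 87.8%, 83.9%, 82.8% and 85.4% of the counts of the pair in HSC-PCK1-KO libraries and 81.7%, 86.5%, 84.6% and 85.4% in Control libraries. With the counts of the pair summed, the log2 fold change was 0.065 at an adjusted p of 0.9998 in edgeR.

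Cyp26a1 and Cyp26b1 encode the hydroxylases that clear retinoic acid, and they differed more between libraries than the other 7 genes. Cyp26a1 (ENSMUSG00000024987.7) stood at 11.1, 5.93, 3.08 and 2.64 CPM in HSC-PCK1-KO libraries and at 12.4, 3.92, 1.59 and 2.20 CPM in Control libraries. One library of each genotype was far above the rest, and the highest of the 8 was 7.84 times the lowest. The means were 5.69 ± 3.89 CPM in HSC-PCK1-KO livers against 5.03 ± 5.02 CPM in those of Control mice (SD, n = 4 each), a log2 fold change of 0.17 with an SE of 0.76. That estimate rested on single libraries. It was 1.15 without Control replicate 1, and -0.37, -0.12 and -0.076 without HSC-PCK1-KO replicate 1, Control replicate 3 and Control replicate 4, and no fit called it.

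Cyp26b1 (ENSMUSG00000063415.13) stood at 6.86, 2.21, 1.68 and 5.10 CPM in HSC-PCK1-KO libraries and at 9.11, 7.43, 1.29 and 3.06 CPM in Control libraries. Replicate 1 of either genotype was again high, Control replicate 2 was high too, and Control replicate 3 was the lowest for both hydroxylases. The means of 3.96 ± 2.45 CPM in HSC-PCK1-KO livers against 5.22 ± 3.66 CPM in those of Control mice (SD, n = 4 each) gave a log2 fold change of -0.40 (SE 0.67), which was 0.017 without Control replicate 1. Within groups, the standard deviation of log2 CPM was 1.13 for Cyp26a1 and 1.12 for Cyp26b1, against a median of 0.154 over the 12563 tested genes with a mean of at least 1 CPM. Of those genes, 99.3% had a smaller spread than Cyp26a1 and 99.3% a smaller one than Cyp26b1.

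Rarb (ENSMUSG00000017491.10) encodes a retinoic acid receptor and is itself induced by retinoic acid. It stood at 3.78, 4.53, 3.10 and 4.25 CPM in HSC-PCK1-KO libraries and at 6.60, 3.28, 4.06 and 4.88 CPM in Control libraries. Control replicate 1 was the highest, and the other 7 libraries lay within a common band. The means were 3.91 ± 0.626 CPM in HSC-PCK1-KO livers against 4.70 ± 1.42 CPM in those of Control mice (SD, n = 4 each), a log2 fold change of -0.27 (95% interval -0.74 to 0.20), and -0.060 without Control replicate 1. The Rarb values are uncertain because 1793 of its 5265 exon bases (34.1%) lie opposite exons of Top2b, and the sources used here do not say whether the counting used the strand that the dUTP libraries keep. Top2b, a DNA topoisomerase, stood at 31.1 to 43.6 CPM in HSC-PCK1-KO libraries, against 35.3 to 40.5 CPM in Control libraries, and its part in the Rarb counts was not tested.

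**Figure D3:**
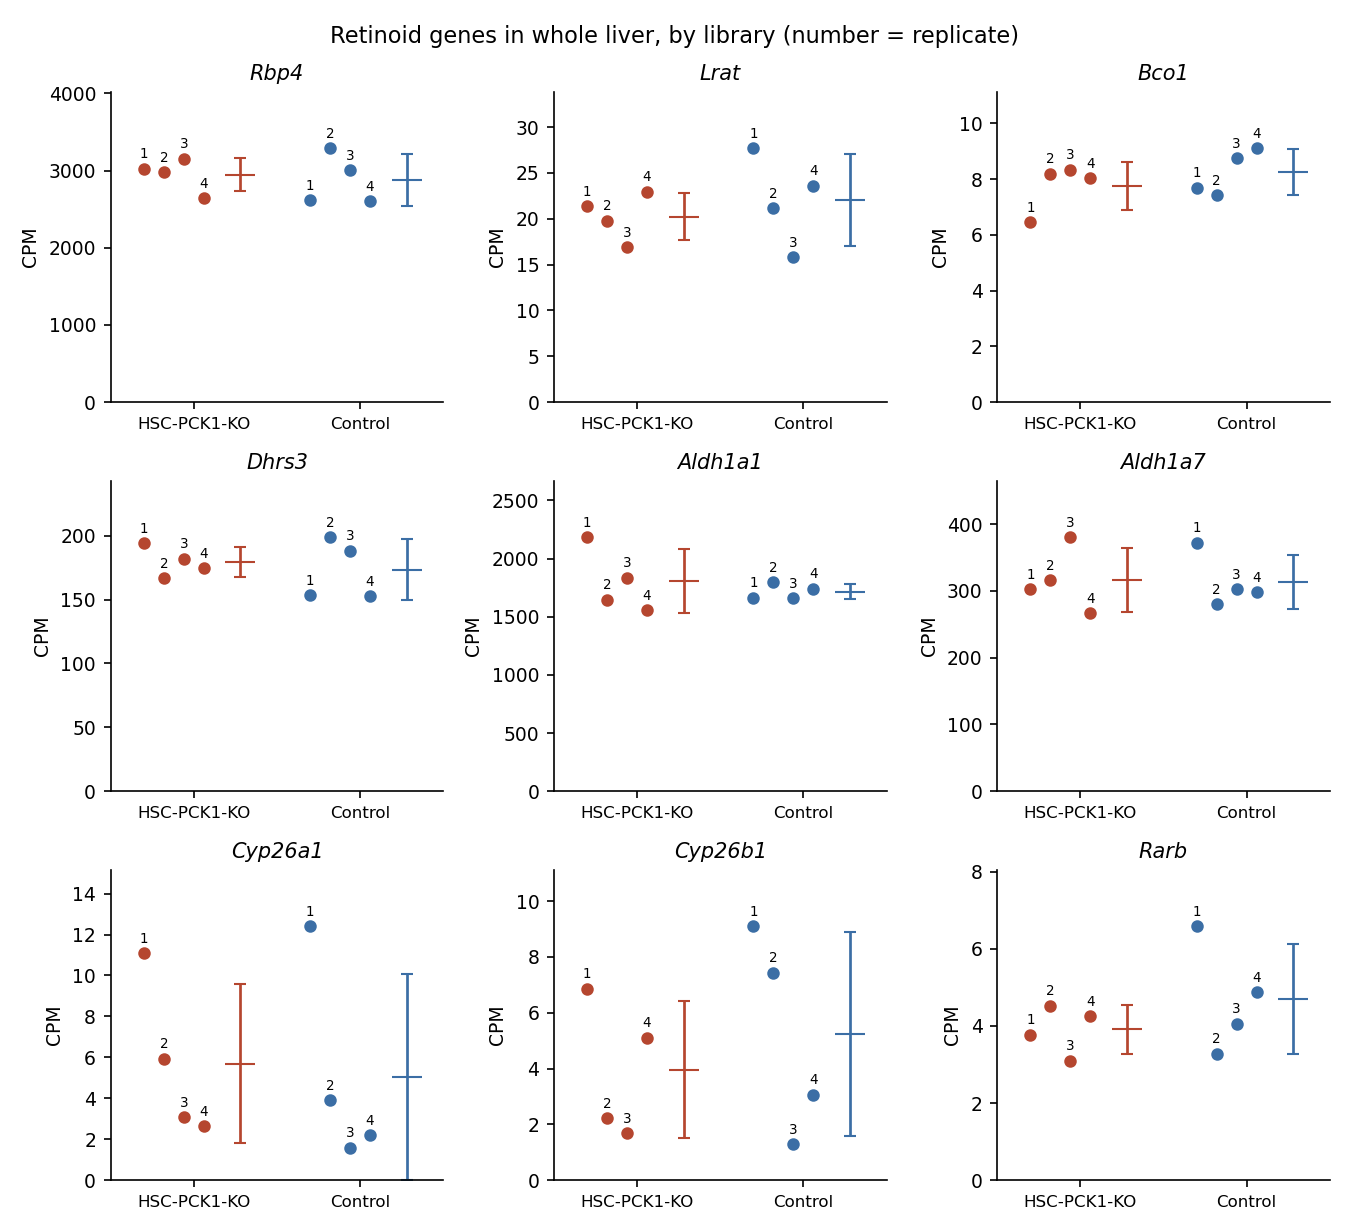
CPM of the 9 genes in each library (dots, with the replicate number above), HSC-PCK1-KO left of Control, with the mean and SD of each group (bars, n = 4). The groups overlap in every panel, and Cyp26a1 and Cyp26b1 range from 1.59 to 12.4 CPM and from 1.29 to 9.11 CPM.

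Several of the 9 genes shared their highest and lowest libraries, and both extremes were often Control libraries. Control replicate 1 was the highest of the 8 libraries for Cyp26a1, Cyp26b1, Lrat and Rarb. Control replicate 3 was the lowest for Cyp26a1, Cyp26b1 and Lrat, while HSC-PCK1-KO replicate 3 was the lowest for Rarb. Rbp4 and Dhrs3 shared another order, with Control replicate 2 the highest for both and Control replicates 1 and 4 the lowest for both. Relative to the median of the 8 libraries, Control replicate 1 was 1.83 log2 units higher for Cyp26a1, 1.2 for Cyp26b1, 0.66 for Rarb and 0.38 for Lrat. In the same library Rbp4 was at -0.19 and Dhrs3 at -0.22.

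**Figure D4:**
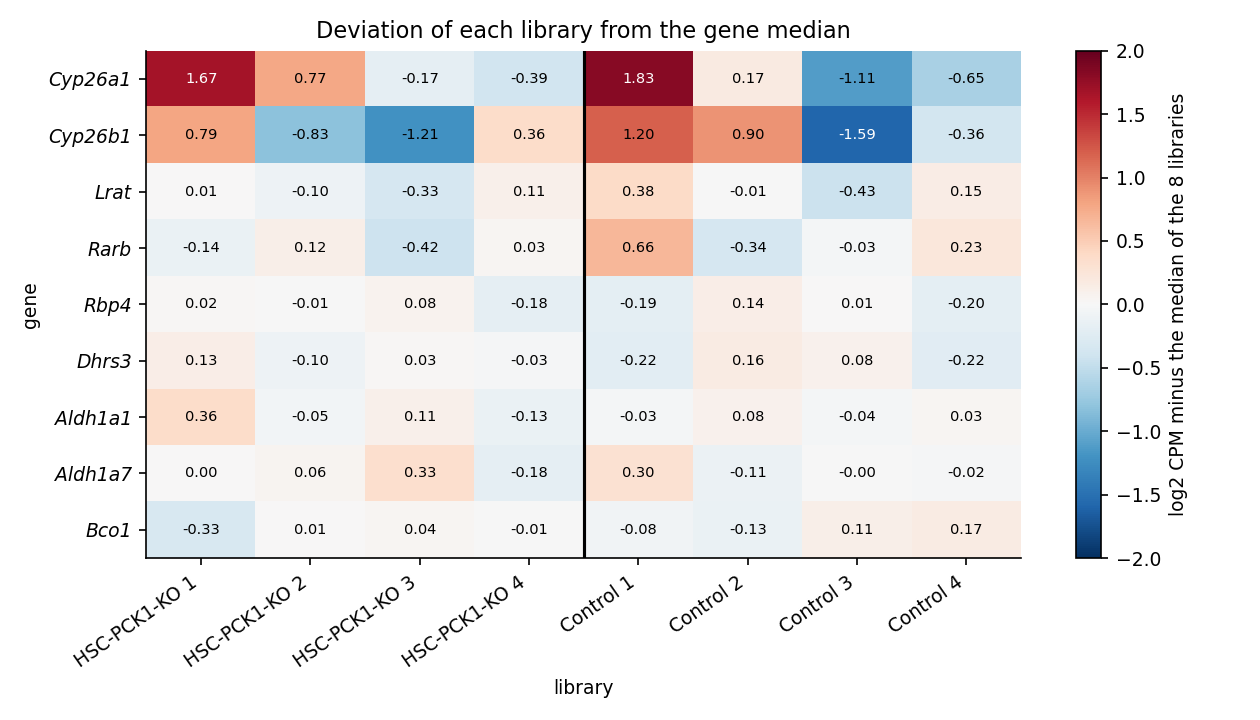
Log2 CPM of each gene in each library minus the median of its 8 libraries, HSC-PCK1-KO left of the line and Control right of it. The strongest colours are in the Cyp26a1 and Cyp26b1 rows, where Cyp26a1 is at 1.67 in HSC-PCK1-KO replicate 1 and 1.83 in Control replicate 1 and Cyp26b1 at -1.59 in Control replicate 3.

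Per kilobase of exon, levels averaged over the 8 libraries fell into an abundant and a scarce class. Rbp4 had 2169 CPM per kb, Aldh1a1 357, Aldh1a7 152 and Dhrs3 60.2, and the ranges of these genes over the libraries did not overlap. The scarce class held Lrat at 3.95 CPM per kb, Bco1 at 3.15, Cyp26a1 at 2.70, Cyp26b1 at 0.858 and Rarb at 0.818. Neighbours in this class overlapped over the libraries, and their order changed with the library, except that Cyp26a1 was above Cyp26b1 in 8 of 8. Cyp26a1 per kb was 4.37, 7.24, 4.93 and 1.40 times Cyp26b1 in HSC-PCK1-KO libraries and 3.68, 1.42, 3.32 and 1.94 times in Control libraries. Lengths are merged exons of GENCODE M21, and no test was made of levels between genes.

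Among 11501 named genes with a mean of at least 1 CPM, those whose log2 CPM came closest to the pattern of the most variable members were sought by the root mean square difference over the 8 libraries, after centring each gene on its median. For Cyp26a1, which itself deviated by 1.03 from its median on that measure, they were Robo1 at 0.62, Nt5e at 0.71 and Gstm2 at 0.72. For Cyp26b1, which deviated by 0.99, they were Ptges at 0.62, Fpr2 at 0.66 and Jrk at 0.66. For Rarb, which deviated by 0.32, Col4a5, Cklf and Cmip lay at 0.12, 0.13 and 0.13. The closest gene to either hydroxylase thus still differed from it by 0.62 log2 units.

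A wider list of 76 retinoid pathway genes, of which 75 were found and 62 tested, was spread around 0. Log2 fold changes were negative for 31 and positive for 31, with a median of -0.00044, against a median of -0.0055 over all tested genes. Lrp1, a receptor that takes up retinoid-carrying remnant particles, averaged 679 ± 35.9 CPM in HSC-PCK1-KO livers against 754 ± 90.2 CPM in those of Control mice (SD, n = 4 each). Cd36, a fatty acid transporter, averaged 146.6 ± 31.2 CPM in HSC-PCK1-KO livers against 129.3 ± 72.8 CPM in those of Control mice (SD, n = 4 each). None of the 62 passed the adjusted threshold of 0.05 in edgeR, 0 higher and 0 lower. In the same test 2 of the 62 had an unadjusted p under 0.05, both lower, against 2.36% of all tested genes. These 2 were Rdh11 and Cyp2s1, the last chosen after its values were seen and with only 10 to 38 counts per library. In 2 of the 62 genes, Rdh11 and Ncoa3, the groups did not overlap, where 1.53% of all tested genes did not in either direction. HSC-PCK1-KO was the lower group in both. DESeq2 and limma-voom called 0 of the 62.

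**Figure D5:**
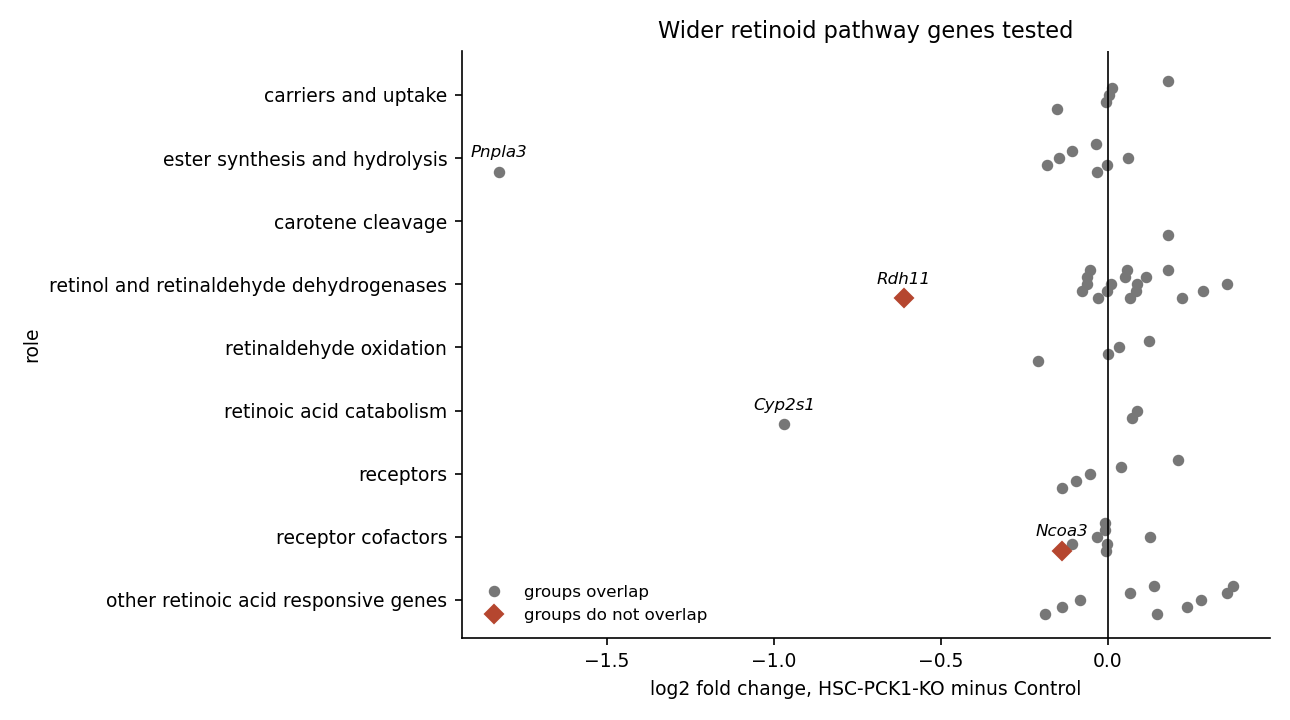
Log2 fold change, HSC-PCK1-KO minus Control, of the 62 tested genes of the wider list by role. Diamonds mark the 2 genes whose groups did not overlap, and Pnpla3 at -1.82 lies farthest from 0 though its groups overlap.

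Rdh11, a retinaldehyde reductase, stood at 44.1, 77.8, 73.5 and 75.2 CPM in HSC-PCK1-KO libraries and at 136, 91.0, 100.4 and 86.0 CPM in Control libraries. The groups did not overlap, with HSC-PCK1-KO replicate 1 far below the other 3 of its group and Control replicate 1 far above the rest of its own. The log2 fold change was -0.61 (SE 0.20), with an unadjusted p of 0.015 and an adjusted p of 0.9998 in edgeR, and it was -0.45 with either of those libraries left out. Of 18 tested retinol and retinaldehyde dehydrogenases, 7 lay below 0 and 11 above it as log2 fold changes, and the median was 0.053. Rdh9 averaged 9.80 ± 2.66 CPM in HSC-PCK1-KO livers against 8.41 ± 0.905 CPM in those of Control mice (SD, n = 4 each).

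Genes of retinyl ester turnover had log2 fold changes below 0 for 7 of 8 tested, the median being -0.072. Pnpla3 is a lipase that can free retinol from its esters, and its cell of origin was not tested in these whole liver counts. It stood at 0.827, 1.59, 0.665 and 0.996 CPM in HSC-PCK1-KO libraries and at 9.74, 0.542, 1.99 and 2.16 CPM in Control libraries. Control replicate 1 was far above all others and Control replicate 2 was the lowest of the 8. The log2 fold change of -1.82 (SE 0.81) was -0.62 without Control replicate 1. Lipe, hormone-sensitive lipase, averaged 16.2 ± 1.86 CPM in HSC-PCK1-KO livers against 17.5 ± 1.06 CPM in those of Control mice (SD, n = 4 each).

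No other retinoid receptor gene was called. Of the 5 other RAR and RXR genes tested, 3 lay below 0 and 2 above it as log2 fold changes, and the median was -0.053. Rxra, the common partner of the RARs in the liver, averaged 509 ± 26.6 CPM in HSC-PCK1-KO livers against 544 ± 86.7 CPM in those of Control mice (SD, n = 4 each), and Rara averaged 18.4 ± 0.889 CPM in HSC-PCK1-KO livers against 17.96 ± 1.44 CPM in those of Control mice. Rxrg averaged 9.41 ± 0.647 CPM in HSC-PCK1-KO livers against 8.14 ± 0.984 CPM in those of Control mice, a log2 fold change of 0.21 with an unadjusted p of 0.080 in edgeR. The groups overlapped for all of these receptors. Rarg averaged 5.19 ± 0.167 CPM in HSC-PCK1-KO livers against 5.70 ± 1.00 CPM in those of Control mice.

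Of 8 receptor cofactors, 7 had log2 fold changes below 0, the median being -0.0090. Ncoa3, a coactivator, stood at 19.3, 21.8, 17.8 and 21.3 CPM in HSC-PCK1-KO libraries and at 21.9, 22.0, 22.0 and 22.3 CPM in Control libraries. The groups did not overlap, by a margin far smaller than the range of the HSC-PCK1-KO libraries, and the log2 fold change was -0.14 (SE 0.075) at an adjusted p of 0.9998 in edgeR. Ep300, a histone acetyltransferase and coactivator, averaged 24.3 ± 1.47 CPM in HSC-PCK1-KO livers against 26.1 ± 1.65 CPM in those of Control mice (SD, n = 4 each).

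Other enzymes of retinoic acid synthesis and clearance gave no call. Aldh1a2, the retinaldehyde dehydrogenase of mesothelium and embryo, stayed at 0.042 to 0.268 CPM over the 8 libraries and did not pass the filter. Aox1 and Aox3 are aldehyde oxidases that can act on retinaldehyde. Aox1 averaged 120.4 ± 10.2 CPM in HSC-PCK1-KO livers against 110.5 ± 9.80 CPM in those of Control mice, and Aox3 averaged 753 ± 104 CPM in HSC-PCK1-KO livers against 871 ± 364 CPM in those of Control mice (SD, n = 4 each). Cyp2s1 averaged 0.285 ± 0.0629 CPM in HSC-PCK1-KO livers against 0.559 ± 0.221 CPM in those of Control mice, a log2 fold change of -0.97 (SE 0.34) with an unadjusted p of 0.016 in edgeR. The groups overlapped for Cyp2s1 and for the other P450 enzymes named here. Cyp3a11 averaged 1023 ± 168 CPM in HSC-PCK1-KO livers against 963 ± 195 CPM in those of Control mice, and Cyp2c39 averaged 2.18 ± 0.340 CPM in HSC-PCK1-KO livers against 2.07 ± 0.769 CPM in those of Control mice. Of 10 other genes known to respond to retinoic acid, 3 lay below 0 and 7 above it as log2 fold changes, the median was 0.14 and none was at an unadjusted p under 0.05. Rarres1 averaged 42.8 ± 5.56 CPM in HSC-PCK1-KO livers against 48.8 ± 8.49 CPM in those of Control mice, and Egr1 averaged 13.3 ± 6.64 CPM in HSC-PCK1-KO livers against 10.4 ± 3.83 CPM in those of Control mice (SD, n = 4 each).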

How the data were processed

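Whole liver RNA was sequenced in 8 libraries, 4 HSC-PCK1-KO and 4 Control, grouped by their titles. The authors deposited raw counts, whole numbers without normalization, for 56953 gene identifiers. Per the labels' protocols, poly(A) RNA went into dUTP libraries that keep the strand, read as 100-base pairs, and all carry a single batch label. Per the submitters' processing notes the build was GRCm39 and R 4.3.2 was used. The sources used here do not name the aligner, counter, annotation, strand setting or handling of multi-mapping reads. Symbols came by identifier from GENCODE M21 (GRCm38), which named 52029 identifiers, and promoters from RefSeq (GRCm38.p6). No coordinates were moved between builds.

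Counts were analysed in R 4.3.3 with edgeR 4.0.16: filterByExpr, which kept 15669 genes, TMM factors, and a robust quasi-likelihood F-test with genotype as the only term. P-values were adjusted by Benjamini-Hochberg over all genes tested, with a threshold of 0.05. Log2 fold changes are given as HSC-PCK1-KO minus Control. Its SE is the fold change over the root of F, and its 95% interval uses the test's degrees of freedom. Log2 CPM used a prior count of 2. Calculations were tested on simulated data. Library totals were 44695439 to 49477255 counts, and intervals of fold changes include the spread between libraries. No pair of libraries agreed within counting noise, the chi-square per degree of freedom being at least 35.1.

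The 9 genes and all lists were chosen with earlier results of these data known. A few genes of the wider list are not reported here, and its counts leave them out. Named from the wider list were, by role, the 2 genes of smallest p with a mean of at least 1 CPM, all genes whose groups did not overlap, and Ttr, Rara, Rxra, Bco2 and Aldh1a2. For the 3 most variable of the 9 genes, the 3 most similar genes were named, leaving out predicted ones. Alternatives were RLE and upper quartile scaling, no filter, a filter of 1 CPM in 4 libraries, DESeq2 1.42.0, limma-voom (limma 3.58.1) with sample weights, a replicate block, an adjusted p of 0.1, sva 3.50.0 with 1 surrogate variable, leaving out each library, and summing Aldh1a1 with Aldh1a7.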

Additional observations from a re-analysis of the deposited data

Results flagged for a closer look

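Among 62 groups of 4 libraries scanned over the named genes, 5 held a library far from the other 3 of its group. About 3.1 would be expected by chance if the groups were independent. That figure is only a rough guide, since all groups come from the same 8 libraries and some genes were named by their p or by groups that did not overlap. HSC-PCK1-KO replicate 1 was low for Bco1, at 6.46 CPM, and for Rdh11, at 44.1 CPM. Control replicate 2 was high for Aox3, at 1413 CPM, and low for Rxrg, at 6.67 CPM. HSC-PCK1-KO replicate 4 was high for Egr1, at 23.2 CPM.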

How the results depend on the processing

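DESeq2 called 6 genes over the whole table, against 0 in edgeR. Neither tool called any of the 9 retinoid genes or of the 62 tested genes of the wider list. With a library left out, edgeR called 0 to 1 genes over the table, 0 of the 9, and 0 of the wider list, and the median log2 fold change of the 9 lay between -0.054 and 0.063. Without each library in turn, log2 fold changes ranged from -0.0085 to 0.11 for Rbp4, -0.25 to 0.0041 for Lrat, -0.14 to -0.014 for Bco1, -0.0054 to 0.12 for Dhrs3 and -0.032 to 0.14 for Aldh1a1. They ranged from -0.087 to 0.11 for Aldh1a7, -0.37 to 1.15 for Cyp26a1, -0.80 to 0.017 for Cyp26b1 and -0.40 to -0.060 for Rarb. Of 146 alternative values of the 9 genes, 133 kept their sign and their side of the threshold and 13 turned sign, all with a library left out. Each gene that turned sign had a log2 fold change smaller in size than its SE in the main fit, as did Bco1, which kept its sign. The cause was not tested. With the replicate number as a block, 0 of the 9 genes were called and their median was 0.011. Cyp26a1 was then at 0.39 (unadjusted p 0.077 in edgeR), against 0.17 (unadjusted p 0.83) in the main fit. Over all tested genes, deviations of same-numbered libraries correlated from -0.33 to 0.058, and those of different-numbered libraries from -0.345 to 0.355. Such correlations cannot tell whether single genes share a factor by replicate number. Cyp26a1 and Cyp26b1 had 61 to 612 counts per library, and their libraries differed by up to 7.84 times in CPM. The part of counting noise in that spread was not tested.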
